A study of Mus musculus with 10 samples.

Results

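Tyrobp, Trem2 and the receptors of immunoglobulin G signal at the surface of microglia, and 8 genes around them were followed in the mouse neocortex: the adaptors Tyrobp and Fcer1g, the receptor Trem2, the Fc receptors Fcgr3, Fcgr2b and Fcgr1, and the surface-associated genes Ly86 and Cd53. They were found by gene identifier among the 45037 probe sets of the array and had 16 probe sets, of 17876 genes named on the array. Each array came from 1 male B6xC3 F1 hybrid mouse, and there were 5 mice of 30 months (numbered 2 to 6) and 5 mice of 5 months (numbered 1 to 5). All 10 mice were housed singly and fed the AIN-93M control diet, with no other treatment in the labels. RNA from frozen neocortex was hybridized to Affymetrix M430 2.0 arrays, on which a gene is read by 1 or more sets of short probes. The question set by the labels is how transcript levels in the neocortex differ between old and young adult mice. The signal is an intensity in arbitrary units, which can be compared between arrays for 1 probe set but not between probe sets.

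Tyrobp (DAP12) and Fcer1g (the Fc receptor gamma chain) are transmembrane adaptors whose tails carry an ITAM, a tyrosine motif that recruits the kinase Syk once phosphorylated. Neither binds a ligand of its own, and they signal for receptors that lack a signalling tail: Tyrobp for Trem2, a microglial receptor of lipids and lipoproteins, and Fcer1g for the activating Fc receptors Fcgr3 and Fcgr1. Fcgr2b is the inhibitory member of the Fc receptors and carries an ITIM, which recruits phosphatases instead. Ly86 (MD-1) is a secreted protein that binds the Toll-like receptor relative Cd180, and Cd53 is a tetraspanin of leukocyte membranes. In the healthy brain these genes are known mainly from microglia.

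In the old neocortex the transcripts of Tyrobp, Ly86 and Fcgr3 were about doubled, at 2.42-fold, 2.28-fold and 1.93-fold, and those of Cd53 and Fcer1g were higher by smaller factors, at 1.39-fold and 1.32-fold. Fcgr2b and Fcgr1 did not pass the test on their brightest probe sets, at 1.09-fold and 1.01-fold. Of the 8 genes, 7 were bright enough for the fit across genes, and 5 of these were called higher and 0 lower at an adjusted p under 0.05 (limma, Benjamini-Hochberg over 11963 genes). Over all 11963 genes 34.0% were called higher and 12.3% lower. Trem2 was too dim for that fit, and in the fit of all probe sets it was 2.10-fold higher. At this contrast 46.3% of the genes tested were called in either direction, so a call alone is common here. The median log2 change of all genes was 0.08, and Tyrobp stood at place 14, Ly86 at place 20 and Fcgr3 at place 58 by change among the 11963 genes.

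The arrays were alike in overall signal, with medians from 114.5 to 122.61 and correlations of log2 signals from 0.982 to 0.994 within an age. These correlations do not compare old arrays with young arrays. In the authors' deposited array names, the prefix SK stands before every 30-month array and before no 5-month array. Its meaning is not given. Whether it marks a difference in handling was not tested, and these arrays cannot separate it from age. The fits rest on 5 mice at each age, and the p-values measure the spread between these mice. The split of calls followed the scaling of the arrays: 73.5% of the called genes were higher with the deposited scaling, 52.9% after quantile normalization and 47.0% with array medians equalized over the tested genes, which moved the median change from 0.08 to −0.02. With that last setting the log2 changes were 1.17 for Tyrobp, 1.08 for Ly86, 0.84 for Fcgr3, 0.97 for Trem2, 0.37 for Cd53 and 0.30 for Fcer1g, and all 6 remained called. The tissue label was checked only with neuronal markers, which can show brain tissue but not its region. All 8 neuronal markers were bright enough to be tested. Snap25, a protein of synaptic vesicle fusion, had signals from 7212 to 8161 at 30 months and from 7749 to 8420 at 5 months. In a bulk sample, a higher number of microglia and more RNA per microglial cell cannot be told apart.

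The 30-month mouse 4 stood apart in genes of blood myeloid cells. Plac8, a gene of monocytes and granulocytes, had a signal of 693.02 in that mouse, 30.5 to 40.02 in the other 30-month mice and 31.77 to 40.18 in the 5-month mice. S100a9, a calcium-binding protein of neutrophils, had 267.65 in that mouse, 30.94 to 46.61 in the other 30-month mice and 27.25 to 33.15 in the 5-month mice. These genes were picked after their values were seen. Summed over 8 neutrophil markers, the signal was 906.49 in that mouse, 422.49 to 527.98 in the other old mice and 453.17 to 518.97 in the young mice. Summed over 11 markers of border macrophages and monocytes, it was 2013.11 in that mouse, 1035.44 to 1265.25 in the other old mice and 1232.95 to 1331.3 in the young mice. These sums include S100a9 and Plac8, so they are not separate from those genes. S100a8 had 228.28 and Chil3 230.29 in that mouse, against at most 74.66 and 85.08 in the other old mice. Among the old mice, mouse 4 was highest in S100a8, S100a9, Mpo and Elane but not in Camp, Ngp, Ltf or Cxcr2. In the other list it was highest in Plac8, Chil3, Lyve1, F13a1 and Cbr2. It was not highest there in Mrc1, Cd163, Pf4, Ms4a7, Ccr2 or Vcan. The same mouse had the highest old signal of Fcer1g, Fcgr3, Fcgr2b and Fcgr1, so the change of each of the 8 genes is given with and without it.

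Promoters of 4 of the genes are shown because Trem2, Fcgr3 and Ly86 were higher together at 30 months while Fcgr1 overlapped on its brightest probe set. They are RefSeq promoters of the GRCm38.p6 assembly, 250 bases before to 50 bases after the start of transcription, 5′ to 3′ along the gene. Entries were matched for 7 of the 8 genes by symbol, and Tyrobp had none. Capitals mark GAGGAA, or TTCCTC where it lies on the other strand, the purine-rich core of sites bound by PU.1 (Spi1), a transcription factor of myeloid cells. The Trem2 window is chr17:48346151-48346450 on the plus strand, that of Fcgr3 chr1:171059345-171059644 on the minus strand, that of Fcgr1 chr3:96293920-96294219 on the minus strand and that of Ly86 chr13:37345095-37345394 on the plus strand.
Trem2: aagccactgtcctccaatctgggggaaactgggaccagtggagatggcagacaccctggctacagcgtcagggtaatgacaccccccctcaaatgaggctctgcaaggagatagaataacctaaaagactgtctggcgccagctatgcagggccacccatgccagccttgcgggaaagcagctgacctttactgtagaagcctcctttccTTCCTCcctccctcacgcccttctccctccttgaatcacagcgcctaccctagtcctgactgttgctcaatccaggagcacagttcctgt
Fcgr3: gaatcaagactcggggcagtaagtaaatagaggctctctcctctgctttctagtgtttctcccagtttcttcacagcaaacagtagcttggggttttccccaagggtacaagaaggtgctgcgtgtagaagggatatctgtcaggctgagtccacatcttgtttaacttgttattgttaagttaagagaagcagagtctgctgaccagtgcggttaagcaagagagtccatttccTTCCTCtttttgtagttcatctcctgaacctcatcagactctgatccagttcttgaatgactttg
Fcgr1: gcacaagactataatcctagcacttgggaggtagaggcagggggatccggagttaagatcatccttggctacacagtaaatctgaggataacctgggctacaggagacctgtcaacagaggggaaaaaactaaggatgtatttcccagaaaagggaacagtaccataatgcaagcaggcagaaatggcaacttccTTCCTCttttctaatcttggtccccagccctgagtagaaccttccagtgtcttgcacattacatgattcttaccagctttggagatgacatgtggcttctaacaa
Ly86: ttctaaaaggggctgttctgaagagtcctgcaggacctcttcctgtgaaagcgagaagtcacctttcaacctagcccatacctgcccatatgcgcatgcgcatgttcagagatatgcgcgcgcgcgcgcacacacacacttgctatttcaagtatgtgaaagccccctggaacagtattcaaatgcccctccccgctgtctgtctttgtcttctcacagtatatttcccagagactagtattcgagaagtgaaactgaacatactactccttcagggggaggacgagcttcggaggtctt

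The motif was present in 4 of the 7 genes with a promoter entry. In Trem2 it began at position −40 from the start site, in Fcgr3 at −15 and in Fcgr1 at −55, and Cd53 held it on both strands. From another listed start of Fcgr3 it began at −6. The motif was absent from the windows of Fcer1g, Fcgr2b and Ly86. In the tested genes with an entry it occurred in 30.0% (2865 of 9560), and over all 32851 promoters, searched on both strands, in 28.3%. Trem2, Fcgr3 and Fcgr1 shared the longer run ttccTTCCTC, which 0.493% of all promoters (162 of 32851) held. That run was picked after the sequences were seen. Ly86, at 2.28-fold, lacked the motif in its window. A match describes letters only, and no binding was measured here.

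Tyrobp, the ITAM adaptor, had signals of 798.81, 851.01, 1018.83, 919.67 and 1085.68 in the 30-month mice 2 to 6, against 396.67, 410.97, 354.15, 413.68 and 347.46 in the 5-month mice 1 to 5. Every old mouse lay above every young mouse, by a wide gap, and mice 4 and 6 were the highest. Log2 signals averaged 9.86 ± 0.18 in the old mice and 8.58 ± 0.12 in the young mice (SD, n = 5 each). The log2 change was 1.28 (SE 0.09, 95% interval 1.09 to 1.46, limma adjusted p = 1.32e-06), and 1.24 without 30-month mouse 4. The gene has 1 probe set on the array.

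Fcer1g, the other ITAM adaptor, had signals of 333.2, 373.1, 487.78, 387.52 and 339.1 in the 30-month mice, against 285.4, 273.98, 304.55, 306.59 and 267.97 in the 5-month mice. The ages did not overlap, but the lowest old mouse was only 1.09 times the highest young mouse, and 30-month mouse 4 stood highest. Log2 signals averaged 8.57 ± 0.22 in the old mice and 8.17 ± 0.09 in the young mice (SD, n = 5 each), a change of 0.41 (SE 0.10, 95% interval 0.20 to 0.61, limma adjusted p = 0.00379). Without 30-month mouse 4 the change was 0.32 and still passed (limma adjusted p = 0.00352). The change of Fcer1g was smaller than that of Tyrobp on the same arrays, with a difference of −0.87 in log2 change.

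**Figure D1:**
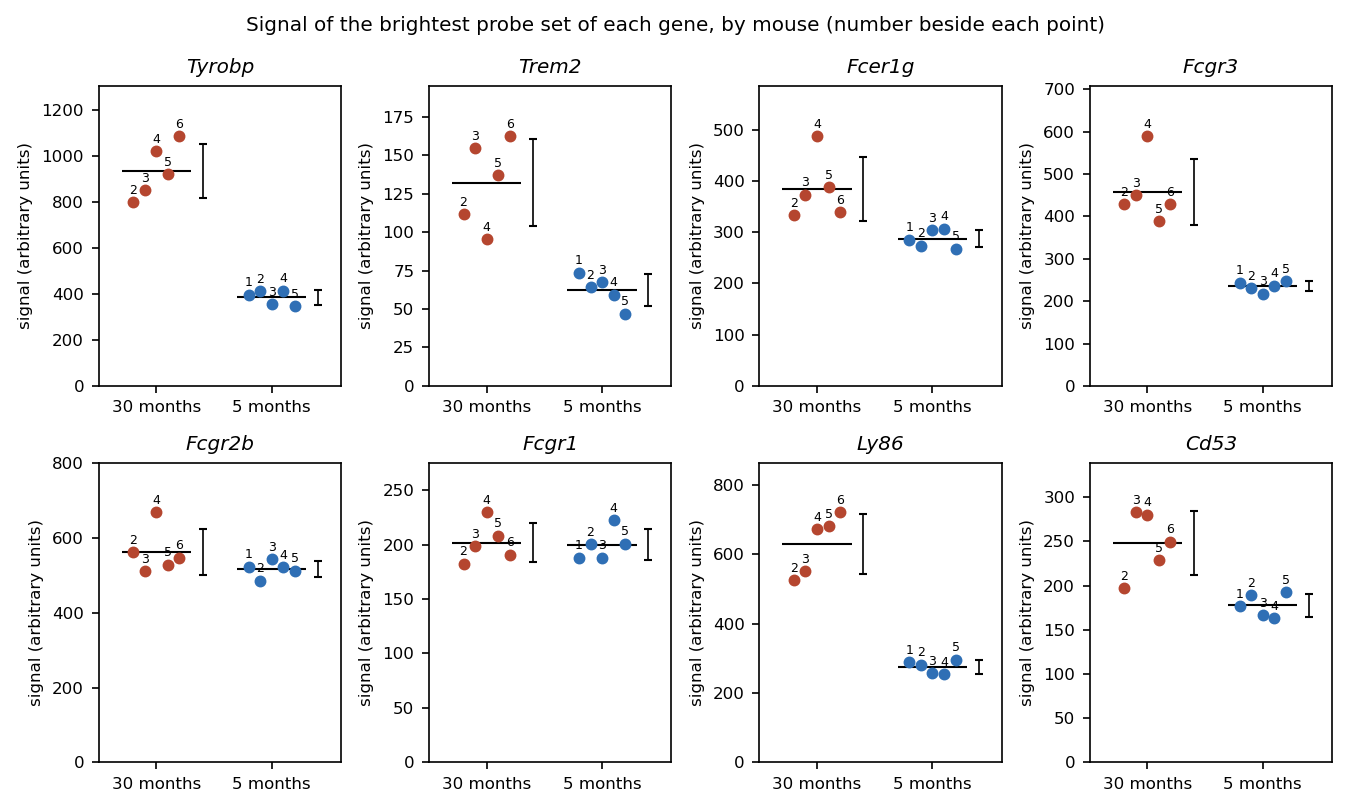
Signal in arbitrary units of the brightest probe set of each of the 8 genes, with 30-month mice left of 5-month mice, the mouse number beside each point, and the mean of each age as a line with its SD as an error bar. Tyrobp, Trem2, Fcer1g, Fcgr3, Ly86 and Cd53 separate the ages in all 10 mice, and Fcgr2b and Fcgr1 overlap.

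Trem2, the receptor that signals through Tyrobp, was read by the probe set 1421792_s_at with signals of 111.51, 154.41, 95.46, 137.12 and 162.44 in the 30-month mice, against 73.66, 64.35, 67.56, 59.2 and 46.86 in the 5-month mice. The ages did not overlap, and unlike the Fc receptors Trem2 had its lowest old signal in mouse 4. Its mean log2 signal of 6.48 lay below the filter of 6.89, the median of all probe sets, so Trem2 is not among the 7 genes of the gene fit. In the fit of all 45037 probe sets its log2 change was 1.07 (SE 0.17, 95% interval 0.70 to 1.45, limma adjusted p = 0.00129), and 1.18 without 30-month mouse 4. A probe set whose name ends in s_at can share probes with other transcripts. The other Trem2 probe set, 1421226_at, had signals from 1 to 9.05 at 30 months and from 2.83 to 20.29 at 5 months, close to the floor of 1, and did not pass the test (log2 change −1.56, SE 0.64, limma adjusted p = 0.106). The 2 probe sets pointed in opposite directions, and the second carries little signal.

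Fcgr3, the low-affinity activating receptor of immunoglobulin G that signals through Fcer1g, had signals of 428.14, 449.54, 589.66, 388.58 and 428.48 in the 30-month mice, against 243.5, 230.84, 217.52, 236.7 and 246.85 in the 5-month mice. The ages did not overlap, the young mice lay close together, and 30-month mouse 4 was the highest. Log2 signals averaged 8.82 ± 0.23 in the old mice and 7.88 ± 0.07 in the young mice (SD, n = 5 each). The log2 change was 0.95 (SE 0.10, 95% interval 0.74 to 1.15, limma adjusted p = 1.54e-05), and 0.85 without that mouse. The gene has 1 probe set.

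Fcgr2b, the inhibitory receptor, had signals of 561.76, 509.9, 667.39, 527.63 and 546.85 in the 30-month mice on its brightest probe set, 1435476_a_at, against 522.63, 485.67, 542.08, 520.71 and 511.93 in the 5-month mice. The ages overlapped and mouse 4 was again the highest. The log2 change was 0.12 (SE 0.07, 95% interval −0.04 to 0.27) and did not pass the test (limma adjusted p = 0.196). Without 30-month mouse 4 it was 0.05. The upper end of the interval, 0.27, lies below the lower end for Fcgr3, 0.74.

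The other 4 probe sets of Fcgr2b differed in direction. Signals of 1435477_s_at were from 171.06 to 307.75 at 30 months and from 162.37 to 239.71 at 5 months (log2 change 0.06, adjusted p = 0.837 in limma over all probe sets). Signals of 1451941_a_at were from 129.58 to 220.52 at 30 months, the highest in mouse 4, and from 118.69 to 141.71 at 5 months (log2 change 0.26, limma adjusted p = 0.210). Both overlapped between the ages. The dim 1455332_x_at had 38.5, 56.02, 62.97, 53.6 and 65.88 at 30 months, against 26.53, 31.86, 32.52, 31.15 and 49.92 at 5 months, and was called higher although the ages overlapped (log2 change 0.70, SE 0.20, limma adjusted p = 0.0283). The dim 1447622_at had 49.9, 18.73, 17.61, 21.88 and 1.5 at 30 months, against 54.09, 64.08, 119.37, 108.55 and 66.35 at 5 months. Every old mouse lay below every young mouse there, and it was called lower (log2 change −2.49, SE 0.75, limma adjusted p = 0.0348). Both calls depended on single mice. That of 1455332_x_at was lost without 5-month mouse 1, 2, 3 or 4 or without 30-month mouse 3, 4, 5 or 6, and that of 1447622_at without 5-month mouse 2, 3, 4 or 5 or without 30-month mouse 3, 4 or 5. Without 30-month mouse 4 the limma adjusted p was 0.0588 for the x_at probe set and 0.0569 for the other. With 16 or 64 added to every signal 1447622_at stayed called lower (limma adjusted p = 0.00587 and 0.00440), but its log2 change shrank to −1.45 and −0.77. Leaving out single mice gave log2 changes from −2.94 to −1.68 for 1447622_at, which had a signal of only 1.5 in 30-month mouse 6. Probe sets ending in x_at can cross-hybridize with related sequences, and Fcgr2b and Fcgr3 have similar extracellular parts, so those of Fcgr2b are uncertain as a readout of 1 gene.

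Fcgr1, the high-affinity activating receptor, had signals of 182.38, 198.77, 229.46, 208.04 and 190.64 in the 30-month mice on 1436625_at, against 187.99, 200.27, 187.98, 222.39 and 200.88 in the 5-month mice. The ages overlapped fully (log2 change 0.01, SE 0.08, 95% interval −0.16 to 0.19, limma adjusted p = 0.915). The log2 change was −0.04 without 30-month mouse 4. Its dim probe set 1417876_at gave another picture, with 56.7, 64.17, 136.67, 62.63 and 72.72 at 30 months, against 35.96, 38.49, 46.55, 45.97 and 46.79 at 5 months. There the ages did not overlap and mouse 4 was far above the rest (log2 change 0.81, SE 0.22, limma adjusted p = 0.0235). Without mouse 4 the change was 0.59 and was still called (limma adjusted p = 0.0124). It was not called without 5-month mouse 1 (limma adjusted p = 0.0531) or without 5-month mouse 2 (limma adjusted p = 0.0529). Which of the 2 probe sets follows the gene was not tested.

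Of the 16 probe sets of the 8 genes, 8 were called higher and 1 lower in the fit of all 45037 probe sets, where 15.0% were called higher and 7.44% lower. The higher ones were those of Tyrobp, Trem2, Fcer1g, Fcgr3, Ly86 and Cd53 described here and the dim ones of Fcgr1 and Fcgr2b, and the remaining 7 did not pass the test. In 7 of the 16 every 30-month array lay above every 5-month array, as in 5386 of the 45037, and in 1 every one lay below, as in 4.57%. Without 30-month mouse 4, 7 were called higher and 0 lower.

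**Figure D2:**
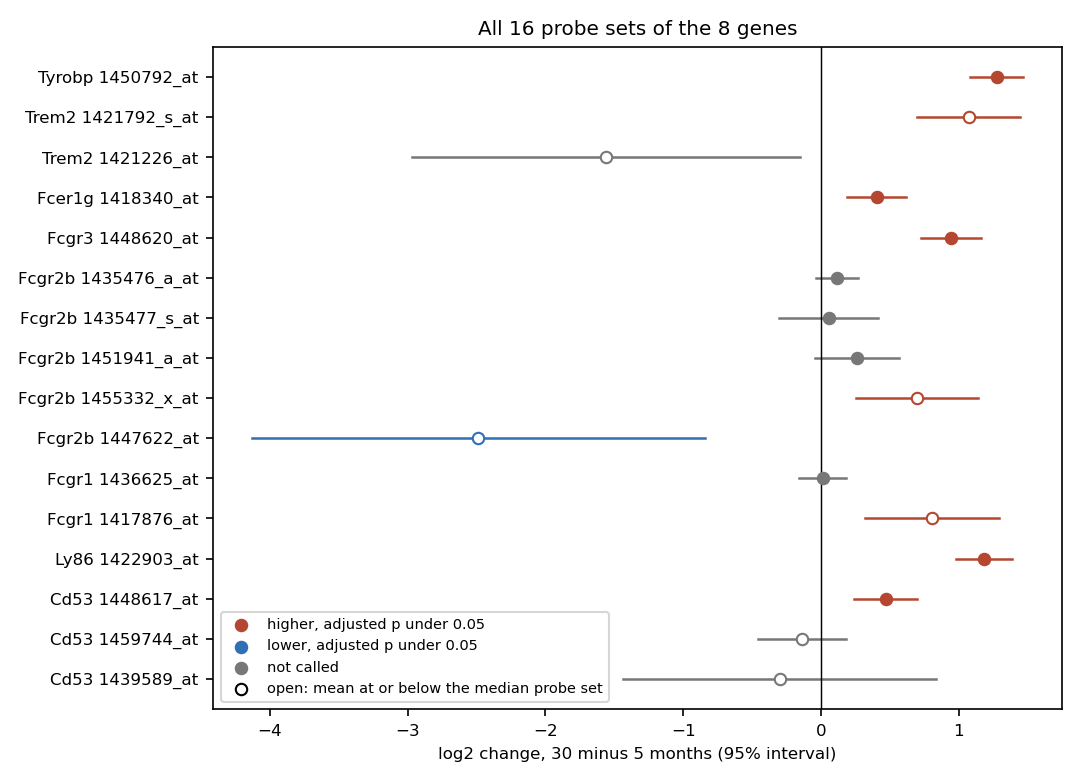
Log2 change, 30 minus 5 months, with its 95% interval for each of the 16 probe sets, from the fit of all probe sets. Filled points are above the median probe set in mean signal and open points are at or below it; the wide intervals, such as that of Fcgr2b 1447622_at around −2.49, belong to dim probe sets.

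Ly86, the partner of Cd180, had signals of 525.86, 550.79, 672.71, 681.65 and 720.68 in the 30-month mice, against 289.28, 281.43, 256.45, 253.8 and 296.17 in the 5-month mice. Every old mouse lay far above every young mouse. Log2 signals averaged 9.29 ± 0.20 in the old mice and 8.10 ± 0.10 in the young mice (SD, n = 5 each), a change of 1.19 (SE 0.09, 95% interval 0.99 to 1.38, limma adjusted p = 3.03e-06), and 1.16 without 30-month mouse 4.

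Cd53, the leukocyte tetraspanin, had signals of 197.28, 282.66, 280.33, 228.7 and 249.79 in the 30-month mice on 1448617_at, against 176.77, 188.9, 166.83, 163.01 and 192.64 in the 5-month mice. The ages were separated only narrowly, since the lowest old mouse, 197.28 in mouse 2, was 1.02 times the highest young mouse. Log2 signals averaged 7.94 ± 0.22 in the old mice and 7.47 ± 0.11 in the young mice (SD, n = 5 each), a change of 0.47 (SE 0.10, 95% interval 0.25 to 0.69, limma adjusted p = 0.00216), and 0.42 without mouse 4. Its other 2 probe sets did not pass the test: 1459744_at had a log2 change of −0.14 (limma adjusted p = 0.548) and 1439589_at, near the floor, one of −0.30 (limma adjusted p = 0.720).

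Of the 7 genes in the gene fit, 5 had every 30-month array above every 5-month array, as did 24.5% of all genes tested, and 0 had every one below, as did 5.75%. All 7 lay above the filter value at both ages. Among the old mice the 8 brightest probe sets did not rank the mice alike: mouse 4 was highest in 4 of 8, mouse 6 in 3 of 8 and mouse 3 in Cd53, and mouse 2 was lowest in 5 of 8. Tyrobp, Trem2 and Ly86 were highest in mouse 6, and the Fc receptor genes in mouse 4.

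**Figure D3:**
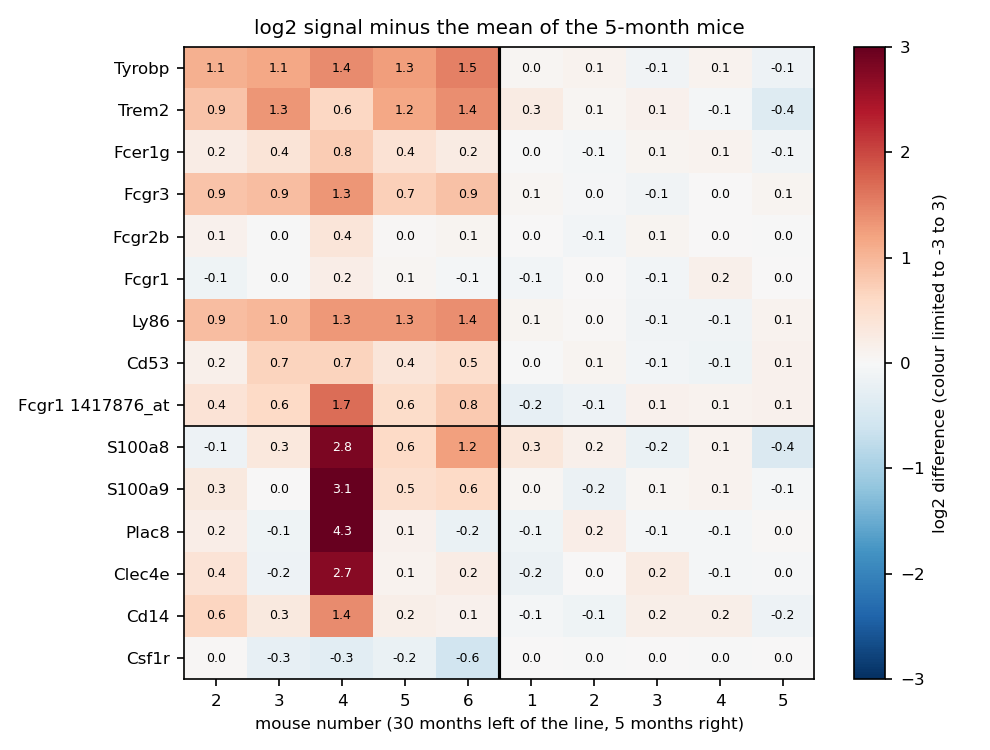
Log2 signal of each mouse minus the mean of the 5-month mice, 30-month mice on the left and 5-month mice on the right, for the 8 genes and the dim Fcgr1 probe set above the line and for genes of blood myeloid cells and Csf1r below it; the colour stops at −3 and 3. Plac8, S100a8, S100a9 and Clec4e peak in 30-month mouse 4, while Tyrobp and Ly86 are high in all 5 old mice.

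Whether genes changed by different amounts was tested within arrays for 7 pairs, so that a common scaling of an array cancels (two-sided exact permutation test over all splits of the arrays, whose smallest p is 0.00794, adjusted over the 7 pairs). Trem2 and its adaptor Tyrobp had a difference of −0.20 in log2 change, with an exact 95% interval from −0.668 to 0.196, and it did not pass the test (exact p = 0.333). That interval still allows Trem2 to have changed by less, and with 64 added to every signal the difference was −0.52 and passed (exact permutation, adjusted p = 0.00794). Fcer1g changed by less than Tyrobp, with a difference of −0.87 (−1.166 to −0.625), and Fcgr3 by more than its own adaptor Fcer1g, with 0.54 (0.320 to 0.747). The inhibitory Fcgr2b, as read by 1435476_a_at, changed by less than the activating Fcgr3, with −0.83 (−1.004 to −0.661). So did the activating Fcgr1 as read by 1436625_at, with −0.93 (−1.141 to −0.705). The dim Fcgr1 probe set, with its log2 change of 0.81, was not set against Fcgr3, so the Fcgr1 difference holds for 1436625_at alone. The other Fcgr2b probe sets, with log2 changes from −2.49 to 0.70, were not set singly against Fcgr3 either. Cd53 changed by less than Ly86, with −0.72 (−0.953 to −0.438). Tyrobp changed by more than Csf1r, the colony-stimulating factor receptor on which microglia depend, with 1.54 (1.136 to 1.957). Each of these 6 differences had p = 0.00794 in the exact permutation test, adjusted p = 0.00926, and for each the log ratios of 5 of 5 old mice lay on one side of all young mice. Without 30-month mouse 4 these 6 had the same adjusted p, and Trem2 minus Tyrobp was −0.06 (exact permutation, adjusted p = 0.683). Several pairs share a gene, and the genes were chosen with their changes known, so the 7 tests are not independent of each other or of that choice.

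**Figure D4:**
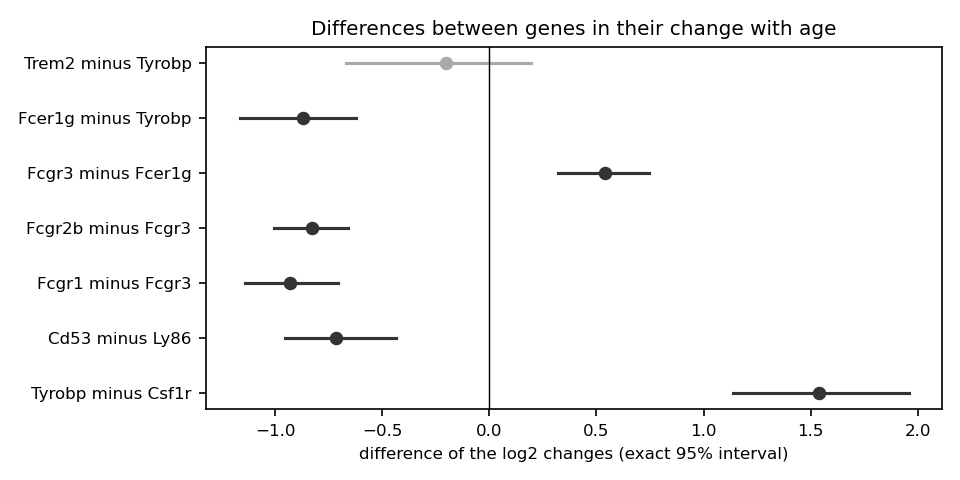
Difference between the log2 changes of the 2 genes of each pair, with its exact 95% interval over the 10 arrays. Of the 7 intervals, 6 exclude 0, and that of Trem2 minus Tyrobp, from −0.668 to 0.196, includes it.

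The Tyrobp profile over the 10 arrays was set against that of every tested gene by the root mean square difference of centred log2 signals. The nearest genes outside the 8 were C1qa (0.082) and C1qb (0.115), chains of complement C1q, Vim (0.123), an intermediate filament protein, Amigo1 (0.159), an adhesion protein of neurons, and S1pr3 (0.164), a receptor of sphingosine 1-phosphate. Their log2 changes were 1.32, 1.19, 1.24, 1.15 and 1.14, and all 5 passed the test. C1qb was read by an x_at probe set. Its other tested probe sets changed by 1.38, called, and 0.27, not called (limma over all probe sets, adjusted p = 4.18e-06 and 0.0549). The other tested probe set of S1pr3 changed by 0.32 and was not called (limma adjusted p = 0.0638). Those of Vim were called higher, at 0.96 and 1.43. Of the other tested probe sets of Amigo1, 2 were called in the same direction (log2 changes 0.46 and 0.33) and 1 in the opposite one (log2 change −0.53, limma adjusted p = 0.0342). Of the other members, Ly86 stood nearest to Tyrobp (0.128, place 4 of 11963) and then Fcgr3 (0.240, place 20). Cd53 (0.438, place 867), Fcer1g (0.467, place 1260), Fcgr2b (0.599, place 5135) and Fcgr1 (0.645, place 6969) were farther away. The measure includes the age difference itself, so a gene with a like change stands near.

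The wider pathway was described by 7 lists with 147 genes, of which 84 could be tested. Of these 84, 29 were called higher, 11 lower and 44 not called, with a median log2 change of 0.04, against 0.08 for all genes tested. The background over all genes was 34.0% higher and 12.3% lower. Leaving out 30-month mouse 4 gave 26 higher and 13 lower.

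Of 20 genes for partner receptors of ITAM adaptors and the adaptor Hcst, 7 could be tested. Of these 1, Itgb2, the beta chain of the leukocyte integrins, was called higher. Its signals were 155.73, 141.21, 211.86, 149.51 and 145.32 in the 30-month mice, the highest in mouse 4, against 98.6, 83.03, 121.56, 82.79 and 75.9 in the 5-month mice (log2 change 0.80, limma adjusted p = 6.51e-04). Itgb2 passed the filter on the strength of its old signals and fell below it without any single 30-month mouse, so its call had to be in this direction. The median of the 7 was −0.05, and Hcst (DAP10), an adaptor that acts beside Tyrobp, was not called (log2 change −0.10, limma adjusted p = 0.310). Of the 11 too dim to test, Clec4e and Clec4d, lectin receptors of myeloid cells, were highest in 30-month mouse 4, at 227.05 and 192.22.

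Of 15 other Fc receptor and immunoglobulin genes, 6 could be tested. Fcrls, an Fc receptor-like gene of microglia, had signals from 134.45 to 170.67 at 30 months and from 87 to 97.6 at 5 months, without overlap (log2 change 0.68, limma adjusted p = 7.32e-05). It also passed the filter only through its old signals and was not tested once any single 30-month mouse was left out. Trim21, a cytosolic receptor of antibodies, was lower on its brightest probe set (log2 change −0.37, limma adjusted p = 0.00269). Its other tested probe set was not called and pointed the other way (0.08, adjusted p = 0.421 in limma over all probe sets). The immunoglobulin heavy chains Ighm and Ighg1 were not called, with log2 changes of −0.13 and −0.04, and Fcgrt, the neonatal Fc receptor, was not called at 0.17.

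Of 36 kinases and effectors downstream of ITAMs, 23 could be tested, with 6 higher, 7 lower and a median log2 change of 0.00. Gab2, a docking adaptor, had 330.2, 386.9, 357.33, 359.41 and 339.28 in the 30-month mice, against 210.71, 198.05, 192.9, 167.21 and 133.58 in the 5-month mice (log2 change 0.99, limma adjusted p = 2.66e-05). Blnk, an adaptor that Syk phosphorylates, was higher (0.62, limma adjusted p = 5.80e-04), as was Plcg1, a phospholipase C (0.21, limma adjusted p = 0.00350). Rac2, a GTPase of blood cells, was lower, with 279.93, 219.23, 203.52, 357.92 and 191.86 in the 30-month mice, against 340.69, 511.05, 554.25, 632.12 and 588.52 in the 5-month mice (log2 change −1.08, limma adjusted p = 4.47e-04). The ages overlapped in Rac2, since old mouse 5 lay above young mouse 1. Prkcd, a protein kinase C, and Lat2, a membrane adaptor, were lower by smaller amounts, at −0.31 and −0.36. Syk itself, Plcg2, Vav1 and Lcp2 were among the genes too dim to test. The counts of this list followed the scaling: after quantile normalization 2 were higher and 9 lower.

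Of 25 inhibitory receptors, phosphatases and other brakes, 13 could be tested. Ptpn11, a phosphatase, and Cd200, a neuronal ligand that restrains myeloid cells, were higher by log2 changes of 0.23 and 0.26, and Lair1, an inhibitory collagen receptor, was lower, at −0.48 (limma adjusted p = 0.00390). The other tested probe set of Ptpn11 was not called (0.24, adjusted p = 0.163 in limma over all probe sets). The phosphatases most tied to ITIMs, Ptpn6 (−0.14) and Inpp5d (−0.27), were not called. Ptpn6 was called lower without 5-month mouse 5 or 30-month mouse 4, and Inpp5d without 5-month mouse 1 or 30-month mouse 2. With array medians equalized over the tested genes, 1 of the list was higher and 4 were lower.

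A list of 13 genes covered possible ligands of Trem2, lipid handling, and the enzymes that shed and cut Trem2. Of these, 11 could be tested and 8 were called higher and 0 lower, with a median log2 change of 0.23. Over all genes tested 34.0% were called higher. Lpl, a lipoprotein lipase, had signals from 543.51 to 611.88 at 30 months and from 369.94 to 454.73 at 5 months (log2 change 0.54, limma adjusted p = 6.29e-05). Anxa5, a binder of phosphatidylserine, was higher at 0.45. Apoe, the main apolipoprotein of the brain, was not called (0.04, limma adjusted p = 0.485). Of the other apolipoproteins listed, Clu was called higher (0.23, limma adjusted p = 4.86e-04) and Apoa1 was too dim to test. Quantile normalization left 6 higher and 0 lower, and equalized medians left 5 higher and 1 lower. Most of these genes are widely expressed in the brain, and the array does not tell in which cells they changed.

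Of 14 partners of Ly86 and genes of Toll-like receptor signalling, only 4 could be tested, and Cd180, the receptor of Ly86, was too dim, with signals from 71.34 to 85.53 at 30 months and from 63.1 to 80.74 at 5 months. Cd14, a coreceptor of lipopolysaccharide, had 405.9, 316.26, 687.8, 293.62 and 281.62 in the 30-month mice, the highest in mouse 4, against 247.82, 237.46, 292.25, 290.28 and 232.66 in the 5-month mice (log2 change 0.53, limma adjusted p = 0.0410). The ages overlapped, and without 30-month mouse 4 the log2 change of Cd14 was 0.31 (limma adjusted p = 0.0380). The call was lost without 5-month mouse 1, 2, 3 or 5 or without 30-month mouse 2. Traf6, a ubiquitin ligase of this signalling, was called lower (−0.46, limma adjusted p = 0.0396), a call lost without 5-month mouse 2, 3 or 4 or without 30-month mouse 3, 4, 5 or 6. After quantile normalization 0 of the list were higher and 1 lower.

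Of 24 tetraspanins other than Cd53, 20 could be tested, with 10 higher and 1 lower and a median log2 change of 0.18. Cd82, a tetraspanin of many cell types, had 393.07, 496.05, 334.84, 435.26 and 442.71 in the 30-month mice, against 293.69, 255.73, 225.51, 256.4 and 222.05 in the 5-month mice (0.74, limma adjusted p = 1.27e-04). Tspan5 (0.53) and Cd151 (0.40) were higher too, and of the other tested probe sets of Cd151, 1 was called in the same direction (0.53, limma adjusted p = 1.34e-04) and 1 in the opposite one (−0.23, limma adjusted p = 0.0229). The other tested probe sets of Tspan5 were not called, at 0.35 and −0.15 (limma adjusted p = 0.0535 and 0.175). Tspan18 was lower at −0.87, with 101.17 to 177.76 at 30 months and 192.47 to 314.55 at 5 months. Its other tested probe set was not called (−0.21, adjusted p = 0.166 in limma over all probe sets). After quantile normalization 7 were higher and 1 lower, and with equalized medians 6 were higher and 3 lower.

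**Figure D5:**
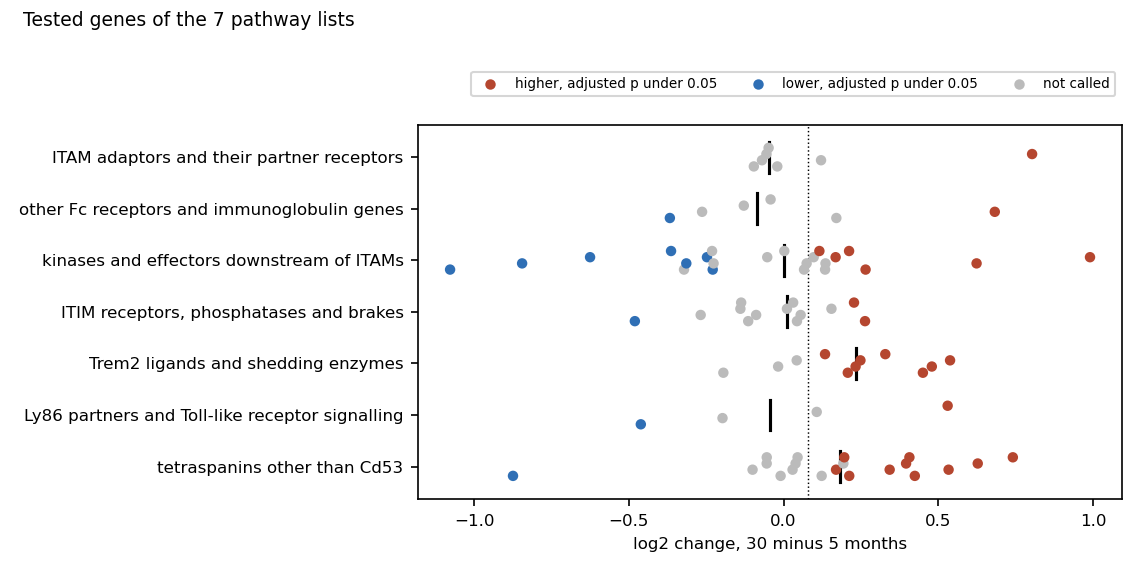
Log2 change, 30 minus 5 months, of each tested gene of the 7 pathway lists, with called genes in colour and the median of all genes, 0.08, as a dotted line. Genes of the list for Trem2 ligands and shedding enzymes and the tetraspanins lie mostly right of 0, and the kinases spread to both sides around a median of 0.00.

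Microglial markers outside the 8 genes moved in different directions. Of the 20 genes of the microglia list, which also holds Tyrobp and Trem2, 17 could be tested, 8 were higher, 2 lower and 7 not called, with a median log2 change of 0.22. The higher ones besides Tyrobp included C1qa (1.32), C1qb (1.19) and C1qc (0.68), Ctss (0.81), a lysosomal protease, Aif1 (0.63), a cytoskeletal protein, and Olfml3 (0.55), a secreted protein. The other tested probe sets of C1qb had log2 changes of 1.38, called, and 0.27, not called. Cx3cr1, the fractalkine receptor, and Csf1r were lower, at −0.40 (limma adjusted p = 0.00633) and −0.26 (limma adjusted p = 0.0170). Csf1r had signals from 2187.76 to 3328.65 at 30 months and from 3215.88 to 3294.35 at 5 months, and its other 2 tested probe sets were not called. P2ry12 (−0.23) and P2ry13 (−0.09), purine receptors, Tmem119 (0.11), a microglial membrane protein, Siglech (−0.05), a lectin that signals through Tyrobp, Selplg (0.13), Spi1 (0.22) and Irf8 (0.09) were not called. The other tested probe set of Irf8 was called higher (0.35, adjusted p = 0.0105 in limma over all probe sets), and Selplg was called without 30-month mouse 4 (0.16, limma adjusted p = 0.0424). Gpr34 and Sall1 were too dim to test. The summed signal of the 20 genes was 16740.45 to 17463.19 at 30 months and 11943.15 to 13426.05 at 5 months, without overlap.

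Markers of other leukocytes were for the most part too dim to test. Of 12 markers of border macrophages and monocytes, 3 could be tested and 0 were higher, and Vcan was lower at −0.45, a call lost without 5-month mouse 1, 2 or 5 or without 30-month mouse 3, 5 or 6. Among the untested ones F13a1, a coagulation factor chain of macrophages, had 62.27 to 91.19 at 30 months and 40.62 to 56.46 at 5 months, without overlap. Of 10 neutrophil markers 1 could be tested, Ngp, which passed the filter on the strength of its 5-month signals. It was called lower (−0.28, limma adjusted p = 0.0316), a call lost when any mouse other than 5-month mouse 1 or 30-month mouse 2 was left out. Of 9 markers of B cells and plasma cells, 4 could be tested and 0 were called. Their summed signal was 1241.91 to 1514.49 at 30 months and 1343.96 to 1483.81 at 5 months. Of 14 markers of T and NK cells, 3 could be tested. Cd8b1, a chain of the CD8 coreceptor, was higher, with 859.55 to 1024.52 at 30 months and 544.82 to 703.86 at 5 months (0.56, limma adjusted p = 7.49e-05). Lck, a kinase of T cells, was lower (−0.49, limma adjusted p = 0.00625), and Cd3e was not called (−0.18, limma adjusted p = 0.0703). Cd8a was too dim to test and overlapped, with 90.26 to 113.56 at 30 months and 89.93 to 122.75 at 5 months. The sum over the list, to which Cd8b1 contributes much, was 1554.24 to 1903.5 at 30 months and 1461.15 to 1771.6 at 5 months. Red blood cell markers summed to 2427.28 to 3467.31 at 30 months and 2198.95 to 4299.11 at 5 months, overlapping. Markers of 2 glial types moved as well, with 7 of 8 astrocyte and 5 of 8 oligodendrocyte markers higher and 0 lower, and 2 of 8 neuronal markers were higher. The part of any of these cells in the changes of the 8 genes was not tested, beyond the values without mouse 4 given with each gene.

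In the authors' deposited table of folds, 6 of the 16 probe sets were marked as changed, and all marked probe sets met a lower bound of the fold of 1.2 and a p of at most 0.1. Over the whole array 156 probe sets that met both were not marked, so these thresholds alone do not define the mark. The authors' deposited table gave folds of 2.42 for Tyrobp, 2.29 for Ly86, 2.12 for Trem2 1421792_s_at, 1.93 for Fcgr3, 1.4 for Cd53 1448617_at and −3.77 for Fcgr2b 1447622_at, where a minus sign means lower at 30 months. Fcer1g, with a fold of 1.33 and a lower bound of 1.14 in the authors' deposited table, was not marked, nor was Fcgr1 1417876_at, with a fold of 1.73 and a bound of 1.12.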

How the data were processed

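Neocortex RNA of 5 mice of 30 months and 5 mice of 5 months was measured on 10 arrays. The deposited values are probe set intensities on a linear scale. The submitters' processing notes name GCOS, with the scaling steps not given in the sources used here. Per the file headers, a further deposited table holds the authors' signed fold as a score, with its lower bound and the authors' p-value. Of 45037 probe sets, 36239 were named by gene identifier and 60 by accession with GRCm38.p6 gene names.

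From the deposited intensities, log2 values were computed after values under 1 (55 in all) were set to 1. Probe sets with a mean log2 above 6.89 were tested, the brightest per gene, in limma 3.58.1 (R 4.3.3) with a variance trend, over 11963 genes, and again without filter over all probe sets. Adjusted p-values are Benjamini-Hochberg values. The fit was tested on simulated data. Differences between genes used exact permutation tests. Tables used Python 3.11.15.

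The 8 genes and the lists were chosen with earlier results of these data known. Named from each list were up to 3 called genes in each direction with the smallest adjusted p, the microglial markers and the 5 genes nearest to Tyrobp; further genes were chosen after their values were seen, and 2 genes that the rule names are not reported here. The mouse numbers do not pair the ages: deviations of mice 2 to 5 correlated at −0.330, −0.040, 0.084 and 0.108. Alternatives covered scaling, added constants, filters, probe set choice, variance models, thresholds and left-out mice. Proteins were not analysed here.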

Additional observations from a re-analysis of the deposited data

Results flagged for a closer look

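The dim Fcgr1 probe set 1417876_at had a signal of 136.67 in 30-month mouse 4, while the other 4 old mice lay between 56.7 and 72.72. On log2 signals the gap to the nearest mouse was 0.717 of the range, above the Dixon critical value of 0.71 for 5 samples. Of 32 groups examined, this was the only 1 beyond that value. Chance flags about 1 in 20 groups, so 1 flag among 32 is no more than that rate gives.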

How the results depend on the processing

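The values of the 7 tested genes and of the brightest Trem2 probe set kept their call and its direction, or stayed uncalled, under the alternatives run on them (202 of 202), with log2 changes from 1.15 to 1.33 for Tyrobp, 1.03 to 1.25 for Ly86, 0.79 to 1.00 for Fcgr3, 0.63 to 1.18 for Trem2 1421792_s_at, 0.36 to 0.55 for Cd53 and 0.30 to 0.45 for Fcer1g. Fcgr2b stayed between 0.02 and 0.15 and Fcgr1 between −0.09 and 0.05. The alternatives of filter and probe set choice were not run on the change of Trem2, so its call could not be lost there. Single probe sets were less stable, with 29 of 330 values losing their call and 1 gaining it. Of all genes, 4068 were higher and 1466 lower. Lower genes numbered 2435 after quantile normalization and 839 at an adjusted p under 0.01, and with array medians equalized over the tested genes, chosen after seeing the data, 2535 were higher and 2862 lower. Pathway genes called higher were 17 after quantile normalization, 18 at 0.01 and 17 with equalized medians, against 29, and those lower were 7 with a filter at 8 and 21 with equalized medians, against 11. Leaving out single mice gave 3544 to 4124 higher and 1188 to 1553 lower genes, 24 to 29 higher and 10 to 13 lower pathway genes, and 6 to 8 higher and 0 to 1 lower probe sets of the 8 genes. Those probe sets were 5 higher and 0 lower both at 0.01 and with the replicate block, and 0 lower with no variance trend, against 8 and 1. The replicate block over mice 2 to 5 gave 3450 higher and 1019 lower genes and kept 5 of 7 members higher; the numbers do not pair the mice. The difference of Trem2 minus Tyrobp became −0.52 with 64 added (exact permutation, adjusted p = 0.00794), −1.52 with the mean of a gene's probe sets and −2.84 without s_at and x_at probe sets (exact permutation, adjusted p = 0.0159 in both), where Trem2 1421226_at enters, whose own log2 change was −1.56. A constant added before log2 shrinks the change of dim probe sets. The number of arrays limits precision, and signals near the floor of 1 limit the dim probe sets.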
